A study of Sus scrofa with 6 samples.

Results

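The subject here is a group of 5 mature microRNAs (miRNAs, short RNAs that pair with messenger RNAs and lower their output) in pig oocytes, listed as ssc-miR-99a, ssc-miR-99b, ssc-miR-100, ssc-miR-125a and ssc-miR-125b (the prefix, for the pig, is left out below). They were chosen by name, as the members of the miR-99/100 and miR-125 families among the 326 mature pig miRNAs listed in every deposited table, and all 5 were found there. The libraries are small RNA libraries of denuded oocytes, that is, oocytes stripped of their cumulus cells, from ovaries of prepubertal gilts obtained at an abattoir. Large-follicle oocytes (LO, 3 libraries) came from follicles of 3 to 6 mm drawn with a 20-gauge needle on a 10 mL syringe, and small-follicle oocytes (SO, 3 libraries) from follicles under 2 mm drawn with a 23-gauge needle on a 5 mL syringe. Follicle size, needle and syringe changed together and cannot be told apart. By its title the series asks how miRNA levels relate to oocyte competence. The sources used here do not give the number of oocytes or animals per library. The tables hold no messenger RNA, so no oocyte marker gene could be checked.

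These miRNAs belong to an old arrangement in animal genomes. Vertebrates carry several copies of a gene cluster in which a member of the miR-99/100 family, a let-7 gene and a member of the miR-125 family lie near each other and can be made from 1 long primary transcript. let-7 and miR-125 (the vertebrate counterpart of lin-4 of the nematode) are known for promoting the passage from early to late developmental states and both can act on LIN28 messenger RNA, while miR-99 and miR-100 are known for acting on components of the mTOR and insulin-like growth factor pathways. Because the parts of a cluster are cut from a shared precursor, the amounts of the mature miRNAs also depend on how each hairpin is processed and how long each product lasts.

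In the RefSeq gene table of the pig assembly Sscrofa11.1 the clusters could be traced by neighbouring entries. MIR125A, MIRLET7E and MIR99B were consecutive entries on chromosome 6. MIR125B-1, MIRLET7A-1 and MIR100 were consecutive on chromosome 9, and MIR99A and MIRLET7C were consecutive on chromosome 13. No coordinates are given because the submitters' processing notes name another build, Sscrofa10.2. Mature miR-125b is known to come from a pair of genes in mammals, and let-7a from several, so their reads cannot be assigned to 1 cluster, whereas miR-99a, miR-99b, miR-100, miR-125a, let-7c and let-7e each have 1 name and 1 cluster here.

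The mature sequences below, copied from the deposited tables (written with T), show which members can pair with the same targets and which can be mistaken for each other. Capitals mark the seed, bases 2 to 8 from the 5′ end, the part that pairs with target messenger RNAs.
miR-99a: aACCCGTAgatccgatcttgtg
miR-100: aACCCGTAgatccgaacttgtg
miR-99b: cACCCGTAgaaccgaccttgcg
miR-125a: tCCCTGAGaccctttaacctgtg
miR-125b: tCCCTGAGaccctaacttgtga
The seed of miR-99a, miR-99b and miR-100 is held by these 3 names alone among the 326, and that of miR-125a and miR-125b by these 2 alone. miR-99a and miR-100 differ by 1 substitution, T16A, counted from the 5′ end of miR-99a. miR-99b differs from miR-99a at 4 positions (A1C, T11A, T16C and T21C), all outside the seed. miR-125a and miR-125b share their first 13 bases and are 4 edits apart over lengths of 23 and 22 bases. Reads of miR-99a and miR-100 could therefore be exchanged by a single sequencing error or tolerated mismatch, and the sources used here do not say how mismatches were treated. The let-7 partners, shown for comparison, share a seed with each other and not with the members.
let-7a: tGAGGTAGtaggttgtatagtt
let-7c: tGAGGTAGtaggttgtatggtt
let-7e: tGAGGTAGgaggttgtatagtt
let-7c differs from let-7a by A19G and let-7e by T9G, so the partners too can exchange reads.

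Levels are given in RPM, that is, reads scaled to 1000000 of the total that the authors used for each library, and whole reads were recovered from them. Library totals ran from 461505 reads (LO replicate 2) to 2187987 (SO replicate 3), and the reads on listed miRNAs from 7755 (LO replicate 2) to 55230 (SO replicate 1). Every LO library was shallower than every SO library, and listed miRNAs took 1.68% of the total in LO replicate 2 against 2.33% to 3.03% in the other 5 libraries, and the part of this in its low RPM values was not tested. In LO replicate 2, the shallowest, 1 read was worth 2.17 RPM, and a count of 0 would allow up to 6.50 RPM, taking 3 reads as the limit. All 5 members had reads in all 6 libraries and enough of them to be tested. Intervals below are 95% exact Poisson or Clopper-Pearson intervals and cover counting error only.

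The 5 miRNAs were detected throughout and spanned a wide range of levels, in the order miR-125b, miR-125a, miR-100, miR-99a and miR-99b by their mean over all libraries. Of all listed miRNA reads the 5 together took 4.87% ± 0.611 in LO libraries and 4.08% ± 0.589 in SO libraries (SD, n = 3 each). miR-125b was above each of the others in 6 of 6 libraries, and miR-99b was below each of the others in 6 of 6. In the middle of the order, miR-125a was above miR-100 in 5 of 6 libraries and miR-100 above miR-99a in 5 of 6, so these neighbours were not separated in every library. By mean over all libraries miR-100 (103 RPM) came next to miR-20a (103 RPM) and miR-664-5p (89.8 RPM), and miR-99a (74.7 RPM) next to miR-183 (77.0 RPM) and let-7g (73.6 RPM). miR-99b (31.6 RPM) stood between miR-489 (32.1 RPM) and miR-138 (30.5 RPM). Each of these neighbours was above its member in 3 to 5 of the 6 libraries, so single libraries do not keep this order.

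**Figure D1:**
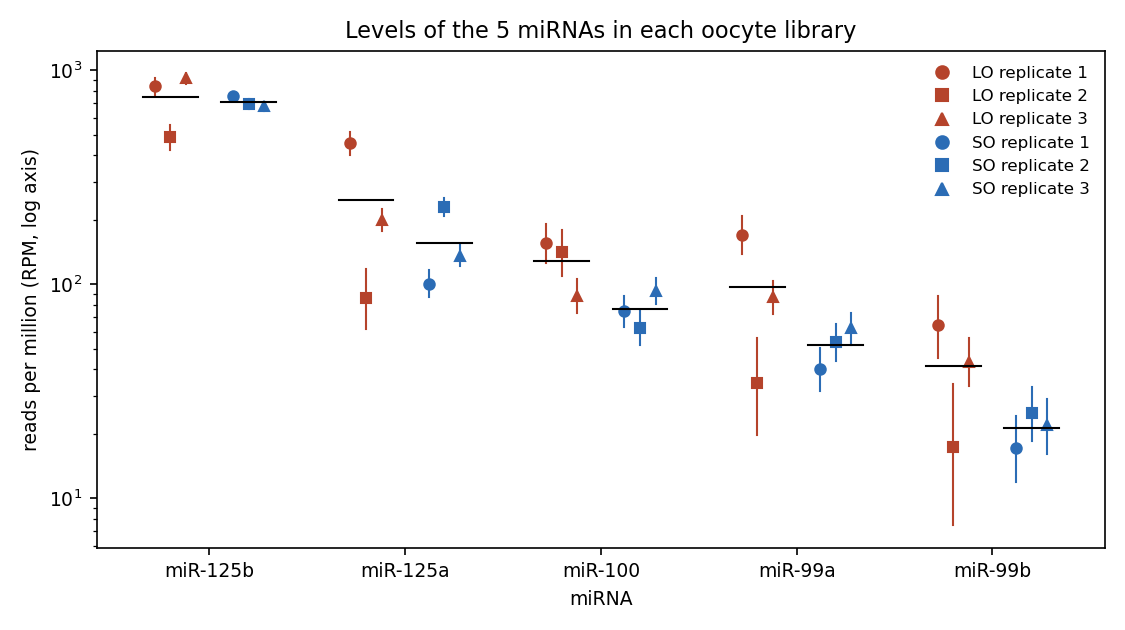
Level of each miRNA in each library, in RPM on a log axis; points are libraries (shape for the replicate number), vertical lines are 95% exact Poisson intervals and horizontal bars are group means. miR-125b lies on top between 488 and 916 RPM, and LO replicate 2 has the lowest LO value of every miRNA except miR-100.

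miR-125b, the most abundant member, lay at 842, 488 and 916 RPM in LO replicates 1 to 3. In SO it lay at 754, 697 and 677 RPM. The SO libraries sat between the LO extremes, with 2 LO libraries above and 1 below all of them. Its LO mean was 748 ± 229 RPM and its SO mean 709 ± 39.9 RPM (SD, n = 3 each), and it ranked 7th among all listed miRNAs in both groups. Over all libraries its mean of 729 RPM fell between those of miR-128 (1047 RPM) and miR-30a-5p (713 RPM), and miR-30a-5p was above it in 2 of 6 libraries.

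As a share of listed miRNA reads, miR-125b varied little. It took 2.78% (95% interval 2.54 to 3.03), 2.90% (2.54 to 3.30) and 3.07% (2.90 to 3.23) in LO replicates 1 to 3. In SO it took 2.61% (2.48 to 2.75), 2.98% (2.82 to 3.14) and 2.91% (2.76 to 3.06). The coefficient of variation of this share over the 6 libraries was 5.51%, the smallest among the 104 tested miRNAs, whose median was 36.9%. Counting alone would give about 3.66% for miR-125b. On the deposited RPM its coefficient of variation was 20.4%, 6th smallest of 104, and on CPM scaled by the trimmed mean of M-values (TMM) it was 15.9%, 10th smallest, so the first place belongs to the scaling by listed reads.

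miR-125a, its seed mate, was far less even. It lay at 457, 86.7 and 200 RPM in LO replicates 1 to 3. The SO libraries held 101, 230 and 136 RPM. LO replicate 1 was the highest library and LO replicate 2 the lowest, so the SO range lay inside the LO range. The LO values spread 5.27-fold and the SO values 2.29-fold. Its mean over all libraries, 202 RPM, fell between those of miR-30d (227 RPM) and miR-146a-5p (186 RPM). The interval in LO replicate 2, from 40 reads, was 61.9 to 118 RPM and did not reach the 178 to 225 RPM of LO replicate 3. The LO mean was 248 ± 190 RPM and the SO mean 156 ± 67.0 RPM (SD, n = 3 each).

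miR-100 did not follow the other members across the LO libraries. It lay at 156, 141 and 88.5 RPM in LO replicates 1 to 3. In SO it lay at 74.7, 62.5 and 92.8 RPM. LO replicates 1 and 2 were above every SO library, and LO replicate 3 was inside the SO range. In LO replicate 2, where the other members were at their LO minimum on deposited RPM, miR-100 took 0.838% of listed reads (95% interval 0.647 to 1.07), the highest share of the 6 libraries, and ranked 17th among all listed miRNAs, against places from 25th to 35th elsewhere. The next highest share was 0.515% (0.415 to 0.633), in LO replicate 1. The LO mean was 129 ± 35.5 RPM and the SO mean 76.7 ± 15.2 RPM (SD, n = 3 each).

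miR-99a lay at 170, 34.7 and 87.1 RPM in LO replicates 1 to 3, the second value resting on 16 reads (95% interval 19.8 to 56.3 RPM). In SO it lay at 40.2, 53.7 and 62.2 RPM. Again LO replicates 1 and 3 were above all SO libraries and LO replicate 2 was below them, although its interval covers the lower SO values. The LO mean was 97.3 ± 68.3 RPM and the SO mean 52.0 ± 11.1 RPM (SD, n = 3 each).

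miR-99b, the least abundant member, lay at 64.3, 17.3 and 43.5 RPM in LO replicates 1 to 3. In SO it lay at 17.2, 25.0 and 21.9 RPM. LO replicates 1 and 3 were above every SO library, and LO replicate 2 lay within the SO range, from only 8 reads (95% interval 7.48 to 34.2 RPM). The LO mean was 41.7 ± 23.5 RPM and the SO mean 21.4 ± 3.92 RPM (SD, n = 3 each).

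Did the members differ between large and small follicles? By limma on log2(RPM + 1), fitted on all 104 tested miRNAs, no member passed a false discovery rate (FDR) of 0.05, and neither did any other miRNA (0 of 104, 0.0%; smallest FDR 0.763, 4 with an unadjusted limma p under 0.05, none of them a member). edgeR with TMM on the recovered reads called 2 of 104 (1.92%) and DESeq2 called 0, again with no member called. All 5 members had a positive log2 fold change, that is, a higher mean in LO, beside 69.2% of all tested miRNAs. Their median was 0.64, against 0.29 for all tested miRNAs. No member had group ranges apart on the deposited scale, where 3.85% of tested miRNAs did. On TMM-scaled CPM miR-99b did, from 1120 CPM upward in LO and up to 1110 CPM in SO, as did 20.2% of tested miRNAs. That gap is narrow, and the lowest LO value, in LO replicate 2, rests on 8 reads. Of the cluster partners, let-7c and let-7e also had group ranges apart on TMM-scaled CPM, and let-7a did not.

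The log2 fold changes, LO over SO on the log2(RPM + 1) scale, ran from 0.03 to 0.76. miR-99b was at 0.76 (SE 0.60), miR-100 at 0.72 (SE 0.52) and miR-99a at 0.64 (SE 0.55), so the 3 miR-99/100 members lay within 1 SE of each other. miR-125a was at 0.44 (SE 0.49) and miR-125b at 0.03 (SE 0.41). The limma FDR was 0.780 for the first 4 and 0.985 for miR-125b. These SEs follow the trend of spread with abundance over all miRNAs and not the miRNA's own replicates. Each value is smaller than the fold that separates single LO libraries of the same miRNA, 1.77-fold for miR-100 and 1.88-fold for miR-125b up to 5.27-fold for miR-125a.

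**Figure D2:**
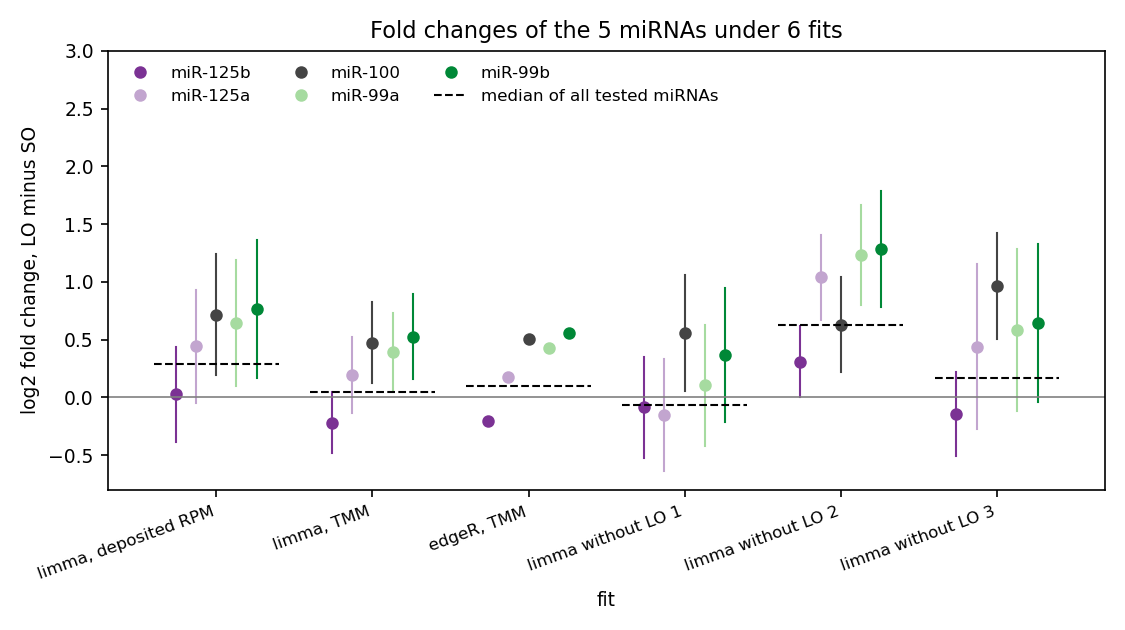
log2 fold change of each miRNA (LO minus SO) under 6 fits; vertical lines are 1 SE (limma; none is drawn for edgeR) and the dashed lines are the median of all 104 tested miRNAs in that fit. The median is -0.06 when LO replicate 1 is left out and 0.62 when LO replicate 2 is, and 4 of the 5 members are higher in the last of these fits than in the fit of all libraries, miR-100 being the exception.

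Scaling shifted the whole profile: with TMM the median of all tested miRNAs was 0.05 in place of 0.29. Relative to it the order of the members stayed, with miR-99b at 0.53, miR-100 at 0.47, miR-99a at 0.39, miR-125a at 0.19 and miR-125b at -0.22 by limma with TMM, so 4 of 5 were positive beside 52.9% of all tested miRNAs. miR-125b thus changed sign with the scaling, and no direction can be given for it. Single LO libraries mattered as much. Without LO replicate 2, limma called miR-99a (log2 fold change 1.23, FDR 0.0346) and miR-125a (1.04, FDR 0.0346), among 18 of 104 miRNAs (17.3%), all higher in LO. The same fit called the cluster partners let-7c (1.44, FDR 0.000972) and let-7e (1.23, FDR 0.0346), but not let-7a (0.75, FDR 0.0522). In edgeR with TMM without the same library miR-99a was at 0.56 (FDR 0.286) and miR-125a at 0.33 (FDR 0.545), and 1 of 104 miRNAs (0.962%), no member, was called. Without LO replicate 1 in limma, miR-99a was at 0.10 and miR-125a at -0.15, with no call.

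The shared seed gives a reason to look at the sums. The summed miR-99/100 level was 391, 193 and 219 RPM in LO replicates 1 to 3. In SO the sum was 132, 141 and 177 RPM. All 3 LO libraries were above all 3 SO libraries, although none of the 3 members had separate groups on its own on this scale: miR-100 was high in LO replicate 2, where miR-99a and miR-99b were low. The mean was 268 ± 107 RPM in LO and 150 ± 23.7 RPM in SO, 0.77 apart on the log2 scale (exact two-sided permutation p = 0.1, the smallest that 3 libraries against 3 can give, and 0.2 adjusted over the 2 families). Per 1000000 listed miRNA reads the groups overlapped, with the lowest LO library at 7334 and the highest SO library at 7598, and with TMM they overlapped from 7149 to 8946 (exact two-sided permutation p = 0.2 in both). Without LO replicate 1 the difference on the deposited scale was 0.47.

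The summed miR-125 level was 1299, 574 and 1116 RPM in LO replicates 1 to 3. In SO the sum was 855, 928 and 813 RPM, inside the LO range. The mean was 996 ± 377 RPM in LO and 865 ± 58.0 RPM in SO, 0.12 apart on the log2 scale (exact two-sided permutation p = 0.9), a difference that was -0.12 with TMM. The miR-125 sum was between 2.98 and 6.57 times the miR-99/100 sum, with LO at 3.32, 2.98 and 5.09 and SO at 6.47, 6.57 and 4.60.

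**Figure D3:**
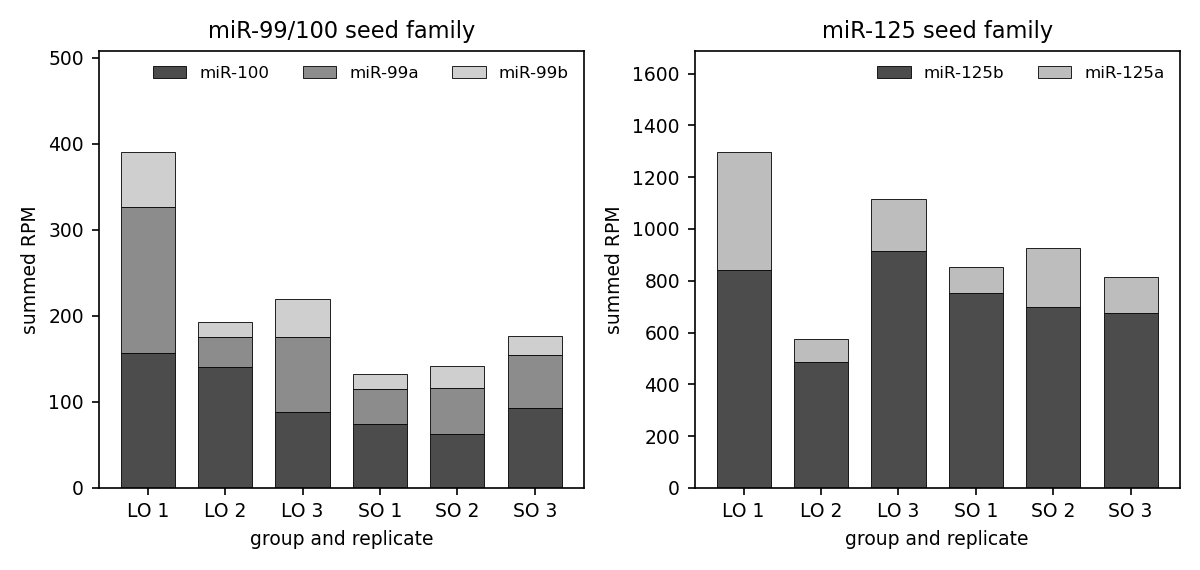
Summed RPM of the miR-99/100 seed family (left) and the miR-125 seed family (right) in each library, split by member; both axes start at 0. The miR-99/100 bars are at 193 RPM or more in LO and at 177 RPM or less in SO, and miR-100 fills most of the bar of LO replicate 2.

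Within the miR-99/100 family, miR-100 supplied 51.1% ± 19.0 of the reads (LO) and 51.1% ± 6.23 (SO; SD over 3 libraries). miR-99a supplied 33.8% ± 13.8 and 34.5% ± 3.82, and miR-99b 15.1% ± 5.56 and 14.4% ± 2.90. The group means were thus within 1 percentage point of each other, but this rests on LO replicate 2, where miR-100 reached 73.0% and miR-99a 18.0%. In LO replicates 1 and 3 miR-100 supplied 40.0% and 40.4%, below every SO library (44.3% to 56.5%). Within the miR-125 family, miR-125b supplied 77.3% ± 10.9 in LO and 82.2% ± 6.58 in SO, from 64.8% in LO replicate 1 to 88.2% in SO replicate 1.

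Ratios between partners within a library do not depend on how libraries are scaled to each other, and 11 of them were compared. Of these, 7 were between partners in the clusters traced above and 2 between seed mates, and 2 (miR-125b to let-7c and miR-99a to miR-125b) set miR-125b beside the chromosome 13 pair, where no miR-125b gene was traced. Each is a log2 ratio of reads with 0.5 added, and the reads of let-7a and miR-125b pool all genes of that name. With 3 libraries against 3 the exact two-sided permutation test cannot give a p below 0.1, so no ratio could pass 0.05 and the test says nothing about whether the ratios were alike. The ratios are therefore described by their values (smallest p 0.1, smallest adjusted p 0.629 over the 11).

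In the chromosome 6 cluster the order of levels was the same everywhere: miR-125a was above let-7e in 6 of 6 libraries and let-7e above miR-99b in 6 of 6. miR-99b to let-7e was the steadiest of the 11 ratios, with an SD of 0.27 over the 6 libraries. Its counting SE ran from 0.22 in LO replicate 3 to 0.57 in LO replicate 2 (8 reads against 25). The SD is thus of the size of counting error. Its LO mean was -1.38 ± 0.20 and its SO mean -1.35 ± 0.37 (SD, n = 3 each), that is, 2.60-fold less miR-99b than let-7e in LO and 2.55-fold less in SO, with a difference of -0.02 (exact permutation p = 1). miR-125a to let-7e ran from 0.67 to 1.45 in LO and from 0.89 to 1.71 in SO. miR-99b to miR-125a differed by 0.36 between the groups (exact permutation p = 0.3).

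In the chromosome 13 cluster let-7c was above miR-99a in 6 of 6 libraries. The log2 ratio of miR-99a to let-7c was -2.76, -3.01 and -2.44 in LO replicates 1 to 3. In SO it was -2.69, -2.65 and -1.87. The values overlapped, and the group difference was -0.33 (exact permutation p = 0.4). Of the names in the chromosome 9 cluster, let-7a was above miR-125b and miR-125b above miR-100 in 6 of 6 libraries. Reads of let-7a and miR-125b can also come from other genes, so this is not the order within the cluster. The log2 ratio of miR-100 to let-7a was -3.64, -2.45 and -3.77 in LO replicates 1 to 3. In SO it was -3.84, -3.96 and -2.97. LO replicate 2 and SO replicate 3 stood above the others, and the difference of 0.30 was smaller than the SD within either group (0.72 and 0.54; exact permutation p = 0.5).

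Of the 11 ratios, miR-125b to let-7c alone had groups that did not overlap. It was -0.46, 0.77 and 0.95 in LO replicates 1 to 3. In SO it was 1.53, 1.04 and 1.57, each above every LO value. The difference was -0.96 (exact permutation p = 0.1, adjusted p = 0.629), and -0.52 without LO replicate 1. Over all 5356 pairs of tested miRNAs 17.3% of the log2 ratios had groups that did not overlap, so 1 of 11 is not above the background. let-7c itself had a log2 fold change of 0.98 (SE 0.44, limma FDR 0.763), and in LO replicate 1 it exceeded miR-125b, with 668 reads against 485.

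**Figure D4:**
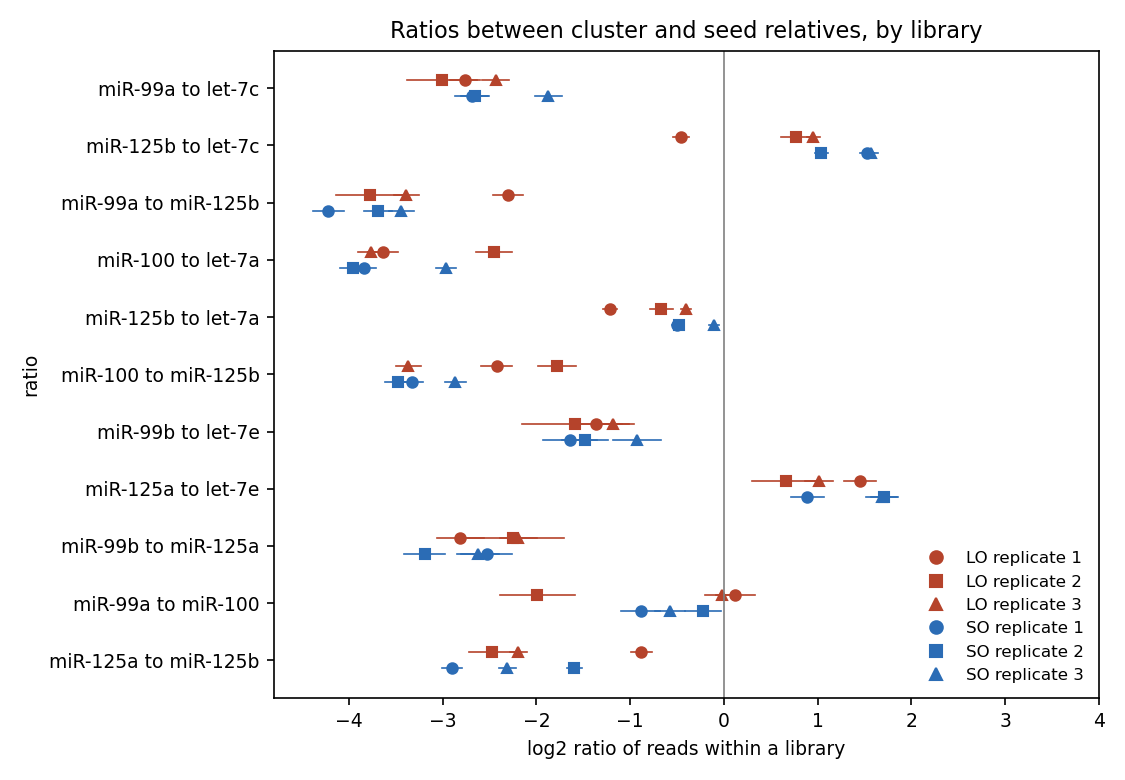
log2 ratio of reads for 7 pairs of traced cluster partners, 2 pairs of miR-125b with the chromosome 13 miRNAs and 2 pairs of seed mates, by library; points are libraries, horizontal lines are 1 counting SE, and 0 means equal reads. miR-99b to let-7e spans the narrowest range of the 11, and miR-99a to miR-100 falls to -1.99 in LO replicate 2.

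Between seed mates, the log2 ratio of miR-99a to miR-100 was 0.12, -1.99 and -0.02 in LO replicates 1 to 3. In SO it was -0.89, -0.22 and -0.58. LO replicates 1 and 3 had about equal reads of both, while LO replicate 2 had 16 reads of miR-99a against 65 of miR-100, a log2 ratio with a counting SE of 0.40. miR-125a to miR-125b ran from -2.48 to -0.88 in LO and from -2.90 to -1.60 in SO (difference 0.42, exact permutation p = 0.6).

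Which miRNAs varied most like each member was described by the SD, over the 6 libraries, of their log2 ratio to it among the 104 tested. All values come from the same 6 libraries, whose depths differ, so the closeness is a description only. Several of the miRNAs named had few reads in their lowest library (8 for miR-99b, 7 for miR-532-5p, 6 for miR-140-3p and 4 for miR-423-5p). Counting error was not taken out of the SDs, so the places of such miRNAs are uncertain. For miR-99a the closest was miR-99b (SD 0.22), encoded in another cluster, followed by miR-140-3p (0.31) and miR-532-5p (0.32). miR-99a was likewise the closest to miR-99b, followed by miR-532-5p (0.24) and miR-191 (0.26). let-7c, the cluster partner of miR-99a, came 11th of 103 (SD 0.39), and let-7e, the partner of miR-99b, came 4th of 103 (SD 0.27).

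For miR-125a the closest were miR-423-5p (SD 0.22), let-7d-5p (0.32) and miR-99a (0.35), and its cluster partners miR-99b and let-7e came 4th and 10th of 103. For miR-125b they were miR-16 (SD 0.15), then miR-320 (0.15) and miR-30d (0.16), while its seed mate miR-125a came 76th. miR-100 had no close companion: the nearest, miR-342, had an SD of 0.44. Its cluster partners let-7a and miR-125b, whose reads can also come from other genes, came 12th and 19th of 103.

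The neighbours in the wider families behaved as follows. All 8 names with the let-7 seed were tested, and all 8 had higher means in LO by limma, with a median log2 fold change of 0.53 and no call at FDR 0.05, beside the 69.2% of all tested miRNAs, while by limma with TMM 6 of the 8 did (median 0.29), and 5 of the 8 without LO replicate 1 (median 0.090). let-7a was at 0.42 (SE 0.39), let-7e at 0.82 (SE 0.54) and let-7f at 0.16 (SE 0.41). miR-10b, of the HOX-linked miR-10 family, whose sequence resembles miR-99 and miR-100 but whose seed differs, was at -0.43 (SE 0.44, limma FDR 0.780), with means of 346 ± 110 RPM (LO) and 450 ± 58.7 RPM (SO; SD, n = 3 each). miR-10a-5p had 28 reads in all and was not tested.

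Markers of other cell types were summed in each library. The 8 fixed granulosa and cumulus miRNAs summed to 1158, 325 and 764 RPM in LO replicates 1 to 3. In SO they summed to 736, 515 and 392 RPM. Nearly all of each sum came from miR-21, miR-31 and miR-202-5p, and only 5 to 7 of the 8 had a read in a given library. By this sum LO replicate 1 was highest, LO replicate 3 next and LO replicate 2 lowest, the LO order of RPM also seen for miR-99a, miR-99b, miR-125a, let-7a, let-7c, let-7e and the share of listed miRNAs in the library total, but not for miR-100 or miR-125b. As a share of listed miRNA reads, let-7a and let-7c did not keep this order. LO replicate 2 was then above LO replicate 3 (4.62% against 4.04% for let-7a, 1.70% against 1.58% for let-7c). The marker sum, miR-99a, miR-99b, miR-125a and let-7e kept it. The share of all tested miRNAs with this order was not counted, so the order is not shown to be particular to these miRNAs. In SO the sum was highest in replicate 1, where miR-99a, miR-99b and miR-125a were at their lowest SO values and miR-125b at its highest. The 9 theca, stroma and smooth muscle miRNAs summed to between 73.7 and 132 RPM in LO and between 45.2 and 101 RPM in SO, with miR-214 at 0 in every library. Endothelial markers summed to at most 17.4 RPM, erythroid to at most 5.21 RPM and skeletal muscle to at most 8.68 RPM in any library, with miR-133b at 0 in every library. Leukocyte markers reached 55.9 RPM in SO replicate 1 against at most 6.50 RPM elsewhere. In bulk libraries, more of such cells and more of the miRNA per cell cannot be told apart, and the part of other cells in the values of the members was not tested.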

How the data were processed

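Small RNA was measured in 6 libraries, 3 of LO and 3 of SO, grouped and numbered by their titles. Per the labels' protocols, RNA was isolated with a mirVana kit and libraries were built with the QIAseq miRNA kit. The submitters' processing notes list bcl2fastq, cutadapt, Bowtie2 2.2.2 and edgeR, and the genome build Sscrofa10.2, without saying what each was used for. The deposited value is headed TPM, but within a library all values are whole multiples of 1 number and sequence length plays no part, so it was taken as RPM of a total that the authors set. Division by that number returned whole reads for 100% of the values above 0 (tolerance 0.01 read). The sources used here do not say whether molecular identifiers were used, and reads were not taken as molecules.

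Of 326 listed miRNAs, 242 had a read and 104 passed filterByExpr of edgeR. The main test was limma-trend (limma 3.58.1, R 4.3.3) on log2(RPM + 1), with the groups LO and SO, adjusted by Benjamini-Hochberg over the 104. Quasi-likelihood tests of edgeR 4.0.16 and DESeq2 1.42.0 were run on the recovered reads as alternatives. Family sums and log2 ratios were compared by exact two-sided permutation (scipy 1.17.1). The fits were checked on simulated data. Replicates of a group differed beyond sampling noise, with chi-square over degrees of freedom of 2.71 to 16.8. The labels call the libraries biological replicates and say no more, so p-values refer to these libraries only. In the main limma fit they rest on the trend of spread with abundance over all tested miRNAs, not on each miRNA's own replicates. Other alternatives were pseudocounts of 0.5 and 5 RPM, no filter, other scalings, other numbers of added reads, the replicate number as a term and leaving out each library. The leave-one-out and replicate-term fits in edgeR were added after the data were seen. The miRNAs named are the 5 members, their cluster partners, the let-7 and miR-10 families, the nearest miRNAs by abundance and the 3 of most similar pattern to each member. Members and lists were chosen with earlier results of these data known. Of the fixed marker names, miR-223 (leukocyte) and miR-133a (muscle) were not matched by name and are not used here.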

Additional observations from a re-analysis of the deposited data

How the results depend on the processing

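Depth limits miR-99a and miR-99b in LO replicate 2 (16 and 8 reads), and the cause of the changes below was not tested. Of 302 alternative values for 22 results, 266 kept their direction and their side of the threshold. For the family sums and log2 ratios only the direction could change, because their permutation p cannot fall below 0.1. The limma fits with the replicate term or with no filter leave each log2 fold change as it was. For those fits only the side of the threshold could change, so the tally overstates how much was tested. The count of miRNAs past FDR 0.05, 0 by limma, was 2 by edgeR with TMM or with DESeq2 size factors, 0 to 18 over the limma fits that left out 1 library (18 without LO replicate 2), and 0 to 4 over those of edgeR (1 without LO replicate 2, 4 without SO replicate 2). In the same limma fits the log2 fold change ran from 0.10 to 1.23 for miR-99a, -0.15 to 1.04 for miR-125a and -0.14 to 0.31 for miR-125b. With 1 library left out, the log2 difference of the miR-125 sum, computed without limma, ran from -0.11 to 0.48. miR-125b was at -0.22 with TMM in limma, -0.20 with TMM in edgeR, -0.24 with DESeq2 size factors in edgeR and -0.25 in DESeq2. In edgeR with TMM it was at -0.31, -0.22, -0.36, -0.11 and -0.13 without LO replicates 2 and 3 and SO replicates 1, 2 and 3, and at 0.052 without LO replicate 1. miR-125a was at -0.091 and -0.19 in edgeR without LO replicate 1 and SO replicate 1, and miR-100 at -0.047 without LO replicate 2. The miR-125 sum was at -0.12 with TMM. The LO minus SO difference of the log2 ratio ran over the fits leaving out 1 library from -0.12 to 0.61 for miR-100 to let-7a, -0.17 to 0.19 for miR-99b to let-7e, -0.44 to 0.61 for miR-99a to miR-100 and -0.065 to 0.76 for miR-125a to miR-125b. The miR-99/100 sum stayed positive, from 0.47 to 0.97.

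Replicate numbers are shared by LO and SO in the titles only. Deviations of equally numbered libraries had correlations of -0.34, -0.22 and 0.08 over the tested miRNAs. Those of unequally numbered libraries ran from -0.29 to 0.43. Deviations from a mean of 3 libraries are tied to each other, so these values cannot decide whether the numbers pair the libraries. With the replicate number as a block, limma called 0 miRNAs and edgeR with TMM 0, with miR-125b at -0.22 in edgeR. In this balanced layout the block cannot change the limma log2 fold changes, so their equality with and without it shows nothing. They were 0.64 for miR-99a, 0.76 for miR-99b, 0.72 for miR-100, 0.44 for miR-125a and 0.03 for miR-125b. Only the SEs and p-values could move, with the SE of miR-99a at 0.61 with the block and 0.55 without it.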
